A study of Mus musculus with 12 samples.

Results

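Cardiac and conduction system transcription factors are represented here by 9 genes, chosen by name: Tbx3, Tbx5, Tbx18, Tbx20, Nkx2-5, Gata4, Hand2, Mef2c and Irx3. All 9 had a row among the 55401 rows of the count table, and all 9 passed the filter on low counts, which kept 16213 genes. The samples were hearts of wild-type C57BL/6J mice, a common inbred strain, read by bulk RNA sequencing in 12 libraries. The 4 groups, of 3 libraries each, were female exercised, female sedentary, male exercised and male sedentary. Exercise meant 6 weeks of treadmill running at 1 km/h, 45 min per day and 5 days per week, and the age-matched sedentary mice spent those 6 weeks in their cages. The sources used here give no ages, no account of how a heart was trimmed and no batch. That a library stands for 1 animal is assumed, since the labels leave it unsaid. The p-values set group differences against the spread between libraries, which on that assumption is a spread between animals.

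These proteins bind DNA and switch the gene programmes that build and maintain the heart. In the T-box family, Tbx3 represses chamber genes and keeps pacemaker and atrioventricular node cells from becoming working muscle, Tbx5 activates chamber and conduction genes, Tbx18 is needed for the head of the sinus node and is made in the epicardium, and Tbx20 maintains adult heart muscle. Nkx2-5 and Irx3 are homeodomain proteins, the first a core factor of heart muscle and of the atrioventricular node, the second a regulator of the ventricular conduction system in mice. Gata4 is a zinc finger factor of muscle growth, Hand2 a basic helix-loop-helix factor first known from the right ventricle, and Mef2c a MADS-box factor of muscle genes. The 9 genes were picked with earlier results of these data in view, so the fitted values are given as a description.

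Total counts ran from 22204349 to 32566240 per library, and the upper end came from female sedentary 2, in which mitochondrial rows, at 0 in the other 11 libraries, took 27.3% of the counts. By myosin light chains, the libraries were ventricular in the main. Myl2, a ventricular marker, stood at 5460 to 6870 CPM in every library, where CPM is a count scaled to library size. Atrial transcripts were uneven. Myl7, the atrial myosin light chain, stood at 107 CPM in female exercised 2, 65.6 CPM in female sedentary 1 and 23.0 CPM in female sedentary 2, and at 0.415 to 2.33 CPM in the other 9. By Myl7 alone, these 3 are called rich in atrial transcripts below and the other 9 low. Myl4, Sln and Dkk3 were also highest in these 3, and Bmp10 stayed at or under 0.151 CPM. Nppa differed, at 249 CPM in female sedentary 3 and 90.3 CPM in female exercised 2. The 6 atrial markers summed to 257 CPM in female sedentary 3 and 273 CPM in female sedentary 2. Of 5 sinus node markers, Isl1 was at 0 in 11 libraries, Shox2 stayed between 0.416 and 2.04 CPM and the pacemaker channel gene Hcn4 between 3.36 and 10.4 CPM. The sum of these 5 ran over 118 to 161 CPM for exercised females, 135 to 163 for sedentary females, 74.1 to 103 for exercised males and 91.2 to 99.3 for sedentary males. Most of it was Smoc2, which other cell types of the heart also make. In bulk tissue, fewer cells of a type and less RNA per cell cannot be told apart.

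Per kilobase of annotated exon, the members spanned a wide range of levels. Nkx2-5 was the most abundant, at 41.7 ± 6.2 CPM per kb (SD over the 12 libraries), followed by Gata4 at 25 ± 2.5, Hand2 at 18.7 ± 3.45 and Irx3 at 14.9 ± 2.99 CPM per kb. A gap followed, since no library's Irx3 level came down to any Tbx20 level. Tbx20 had 6.09 ± 0.515 CPM per kb, Tbx5 4.54 ± 1.21, Mef2c 3.03 ± 0.311 and Tbx3 2.49 ± 0.468 CPM per kb. Tbx18 came last at 0.842 ± 0.153 CPM per kb, below every library's Tbx3 level. All other neighbours in this order overlapped in their library ranges. Depth differed with level: Tbx18 rested on 63 to 141 reads a library and Tbx3 on 280 to 585, whereas Gata4 had 1833 to 2922. The members also differed in how steady they were. The coefficient of variation over the 12 libraries was 8.46% for Tbx20, 10% for Gata4 and 10.3% for Mef2c, and reached 20.1% for Irx3 and 26.5% for Tbx5.

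**Figure D1:**
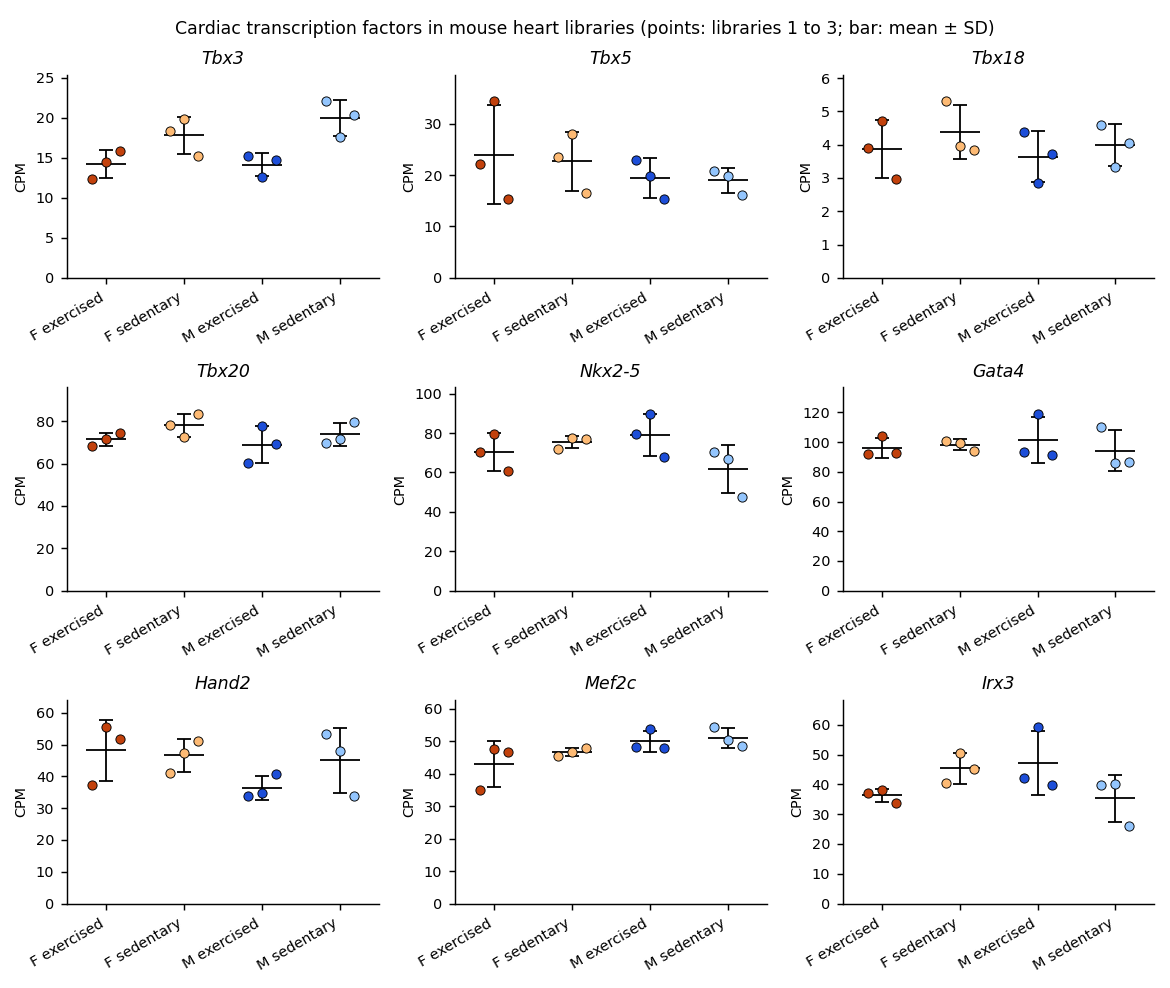
Level of each of the 9 transcription factors in CPM (vertical axes, each from 0) in the 3 libraries of each group; points are libraries and bars mean ± SD. Tbx3 sits lower in both exercised groups than in the sedentary group of the same sex, with 1 library of overlap in females, while Gata4 and Tbx20 stay within a narrow band.

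The first question of the design was what 6 weeks of running does to each factor in each sex. In females, no member passed an adjusted p of 0.05, where 0% of the 16213 tested genes did. The log2 fold change was below 0 for 7 of 9 members, against 49.9% of all genes, with a median of -0.12 against 0 over all genes. An unadjusted p under 0.05 was reached by 1 member, Tbx3, against 3.93% of all genes. Libraries did not overlap for 1 member, Irx3, against 9.79% of all genes. In males, again no member and 0% of genes passed. There 5 of 9 members lay below 0, against 49.9% of all genes, and the median was -0.03 against 0. An unadjusted p under 0.05 was reached by Tbx3, Nkx2-5 and Irx3, against 7.84% of all genes, and 1 member, Tbx3, had no overlap between libraries, against 12.3% of all genes. DESeq2, run on the whole count table with its own filter, called 1 gene in females and 24 in males, with no member among them. In males it gave no adjusted p for Tbx3, Tbx5 and Tbx18, so these could not be called there. voom called 0 in both sexes.

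**Figure D2:**
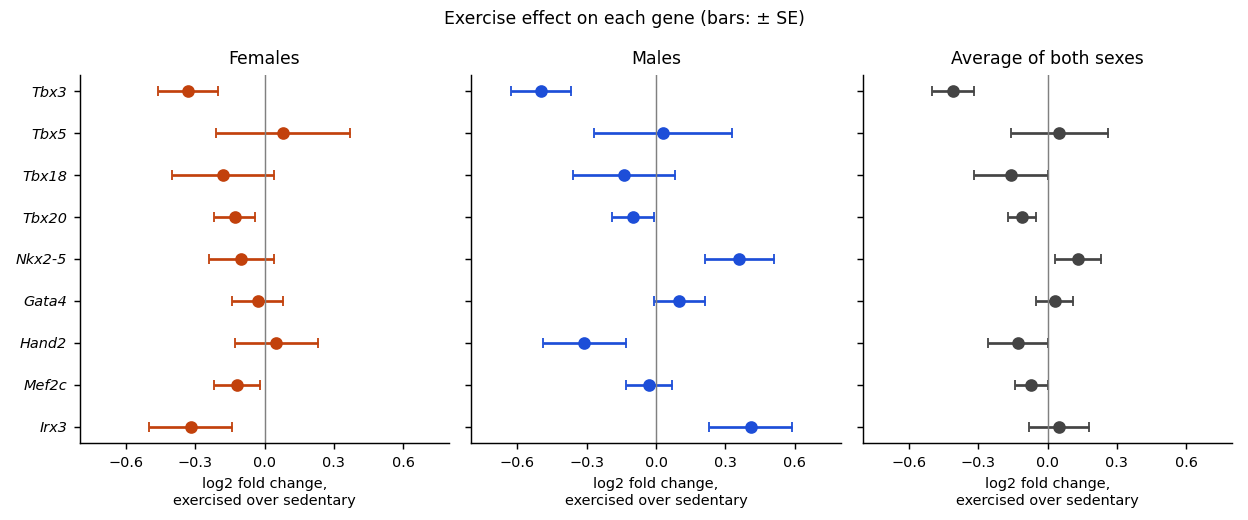
Log2 fold change of each transcription factor, exercised over sedentary, in females, in males and as the average of both sexes; points are fitted values and bars ± 1 SE, with a line at 0. Tbx3 lies below 0 in all 3 comparisons, and Irx3 and Nkx2-5 lie on opposite sides of 0 in females and males.

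Tbx3, the repressor that guards the nodal programme, was the member with the most uniform difference. Its gene (ENSMUSG00000018604.18) lies on the plus strand at chr5:119670669-119684724 of GRCm38. It had 12.3, 14.5 and 15.8 CPM in female exercised hearts, against 18.4, 19.8 and 15.2 CPM in sedentary females. In males it had 15.2, 12.6 and 14.7 CPM after exercise, against 22.1, 17.6 and 20.3 CPM in sedentary hearts. All exercised males were below all sedentary males, and in females the highest exercised library stood just above the lowest sedentary one. Over both sexes, the 6 exercised libraries ran from 12.3 to 15.8 CPM with a median of 14.6 CPM, against 15.2 to 22.1 CPM and 19.1 CPM in the 6 sedentary ones, and 5 of 6 exercised libraries lay below every sedentary library.

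The fitted log2 fold change of Tbx3 was -0.33 ± 0.13 in females (SE, adjusted p = 1) and -0.50 ± 0.13 in males (adjusted p = 0.567, quasi-likelihood test of edgeR, Benjamini-Hochberg adjustment). The difference between the sexes in this effect was 0.17 ± 0.18 (adjusted p = 0.943). The average over both sexes was -0.41 ± 0.09, a level 0.751 times that of sedentary hearts. By unadjusted p, 0.000417, it ranked 7 of 16213 genes, but edgeR's adjusted p was 0.691. In this average comparison 1 member had an unadjusted p under 0.05, against 6.28% of all genes, and 0% of genes passed after adjustment. DESeq2 put Tbx3 just past the threshold for the average, at -0.41 ± 0.10 with an adjusted p of 0.048, 1 of 11 genes it called, whereas voom gave an adjusted p of 0.633 and called 0 genes. Leaving out any 1 library kept the average between -0.46 and -0.37. Without the 3 libraries rich in atrial transcripts, the fitted value was -0.50 in males and -0.11 in females. The female value then sets 2 exercised libraries against 1 sedentary library, the one with the lowest sedentary level, which is assumed to vary like the other groups.

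An antisense gene, Tbx3os1, overlaps exons of Tbx3 and had 28 to 71 reads a library, few beside the Tbx3 counts. The strand setting of the counting is unknown. Hcn4, a channel gene of pacemaker cells where Tbx3 is made, had a log2 difference of 0.47 ± 0.32 in females and 0.21 ± 0.31 in males after exercise, with adjusted p-values of 1 and 0.901. Of the 3 sinus node markers tested, 1 was above 0 and 2 below 0 in each sex. Their median log2 fold change was -0.13 in females and -0.09 in males.

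Tbx18, the factor of the sinus node head and of the epicardium, lies on the minus strand at chr9:87702800-87731260 (ENSMUSG00000032419.8). It had 3.91, 4.72 and 2.97 CPM in female exercised hearts, against 5.31, 3.97 and 3.84 CPM in sedentary females. Exercised males had 4.38, 2.84 and 3.71 CPM, against 4.60, 3.34 and 4.06 CPM in sedentary males. The groups overlapped in both sexes. The log2 fold changes, -0.18 ± 0.22 in females and -0.14 ± 0.22 in males, were smaller than their errors. An uncharacterised annotated gene that overlaps its exons, D030062O11Rik, had no more than 5 reads a library. Markers of epicardium summed to 27.0 to 31.1 CPM in female exercised hearts, against 18.8 to 58.6 CPM in sedentary ones, and to 20.6 to 22.3 CPM in exercised males, against 17.1 to 31.0 CPM in sedentary ones. Their part in the Tbx18 values was not tested.

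Tbx5, the activator of chamber and conduction genes, was the least steady member. It lies on the plus strand at chr5:119832668-119885219 (ENSMUSG00000018263.11), on the same chromosome as Tbx3. Exercised females had 22.1, 34.4 and 15.4 CPM, against 23.5, 28.0 and 16.5 CPM in sedentary females. Exercised males had 23.0, 19.8 and 15.3 CPM, against 20.8, 19.9 and 16.2 CPM in sedentary males. The ranges of exercised and sedentary hearts overlapped widely, with log2 fold changes of 0.08 ± 0.29 in females and 0.03 ± 0.30 in males. A noncoding gene, Gm43050, starts 748 bases away without overlapping it and had 104 to 192 reads a library.

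The 3 highest Tbx5 levels were those of the 3 libraries rich in atrial transcripts by Myl7. Tbx5 averaged 28.6 ± 5.49 CPM in them (SD, n = 3), against 18.8 ± 2.98 CPM in the other 9, and the 3 other female libraries, at 15.4 to 22.1 CPM, lay within the male range of 15.3 to 23.0 CPM. For Tbx18 the averages were 4.67 ± 0.673 CPM in the 3 libraries and 3.74 ± 0.598 CPM in the other 9, with overlap. Of the 16213 tested genes, the one whose profile over the 12 libraries was most like that of Tbx5 was Plin1, a gene of fat cells, which stood at 7.64 CPM in female exercised 2, at 1.02 and 1.22 CPM in female sedentary 1 and 2, and at no more than 0.416 CPM elsewhere. Likeness here is the root mean square difference of standardised log2 levels, which was 0.44 for this pair. The adipocyte markers summed to 92.1 CPM in female exercised 2 and to 12.1 and 9.67 CPM in female sedentary 1 and 2, against 0.528 to 6.33 CPM in the other 9. Erythroid markers also moved with these libraries, at 293 CPM in female exercised 2 and 3630 and 1750 CPM in female sedentary 1 and 2, against 8.26 to 86.2 CPM in the other 9. The part of atrial tissue, fat or blood in the Tbx5 and Tbx18 values was not tested.

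**Figure D3:**
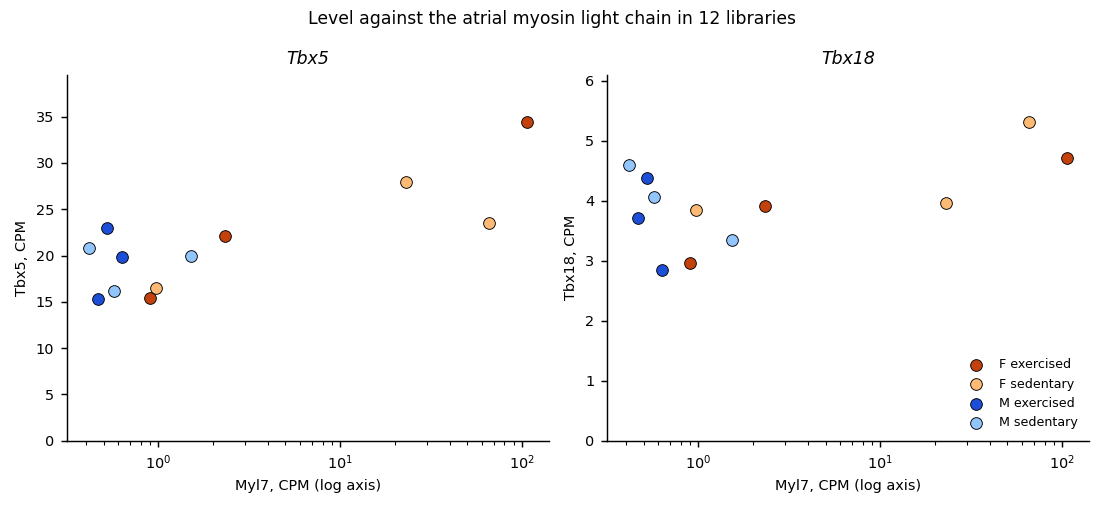
Tbx5 and Tbx18 in CPM (vertical axes) against Myl7, the atrial myosin light chain, in CPM on a log axis, with 1 point per library, coloured by group. The 3 libraries to the right, with Myl7 between 23.0 and 107 CPM, hold the 3 highest Tbx5 levels, while their Tbx18 levels overlap those of the other 9.

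Tbx20, which maintains adult heart muscle, was the steadiest member. It lies on the minus strand at chr9:24718138-24774303 (ENSMUSG00000031965.15). Exercised females had 68.2, 71.5 and 74.4 CPM, against 78.1, 72.5 and 83.4 CPM in sedentary females. Exercised males had 60.1, 77.5 and 69.2 CPM, against 69.9, 71.6 and 79.7 CPM in sedentary males. Each pair of groups overlapped, by 1 exercised library in females. A noncoding gene that starts nearby, Gm29824, had no more than 12 reads a library. The log2 fold change was -0.13 ± 0.09 in females, -0.10 ± 0.09 in males and -0.11 ± 0.06 on average (unadjusted p = 0.0975, edgeR's adjusted p = 0.793).

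The homeodomain factors Nkx2-5 and Irx3 had similar profiles from library to library. Nkx2-5 (ENSMUSG00000015579.5) spans chr17:26838664-26845009 on the minus strand. It had 70.4, 79.7 and 60.7 CPM in female exercised hearts, against 71.7, 77.5 and 77.2 CPM in sedentary females. Exercised males had 79.3, 89.7 and 68.0 CPM, against 70.6, 66.7 and 47.7 CPM in sedentary males. The highest and the lowest level of all 12 were both in males, in male exercised 2 and male sedentary 3. The log2 fold change was -0.10 ± 0.14 in females and 0.36 ± 0.15 in males (unadjusted p = 0.0307, edgeR's adjusted p = 0.627).

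Irx3 (ENSMUSG00000031734.13), at chr8:91798525-91802067 on the minus strand, had 37.0, 38.2 and 33.9 CPM in female exercised hearts, against 40.3, 50.6 and 45.3 CPM in sedentary females. Exercised males had 42.2, 59.3 and 39.8 CPM, against 39.7, 40.0 and 26.1 CPM in sedentary males. Female groups did not overlap, with all exercised libraries lower, and in males all but 1 exercised library lay above every sedentary one. As with Nkx2-5, male exercised 2 was the highest and male sedentary 3 the lowest of all 12. The log2 fold change of Irx3 was -0.32 ± 0.18 in females (adjusted p = 1) and 0.41 ± 0.18 in males (adjusted p = 0.63, edgeR).

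Whether exercise acted differently in the sexes was tested directly. The female effect minus the male effect was -0.74 ± 0.25 for Irx3 (unadjusted p = 0.014) and -0.46 ± 0.21 for Nkx2-5 (unadjusted p = 0.0452), and edgeR's adjusted p was 0.93 for both. These were the 2 members with an unadjusted p under 0.05, against 4.74% of all genes, and 0% of genes passed after adjustment, while DESeq2 called 12 genes and voom 0. The Irx3 difference came down to -0.54 without male exercised 2, and that of Nkx2-5 to -0.31 without male sedentary 3. In males alone, the Irx3 value was 0.21 without male exercised 2, and the Nkx2-5 value was 0.20 without male sedentary 3. The other 7 members had sex differences in effect between -0.13 and 0.36, each under 1.5 times its SE.

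**Figure D4:**
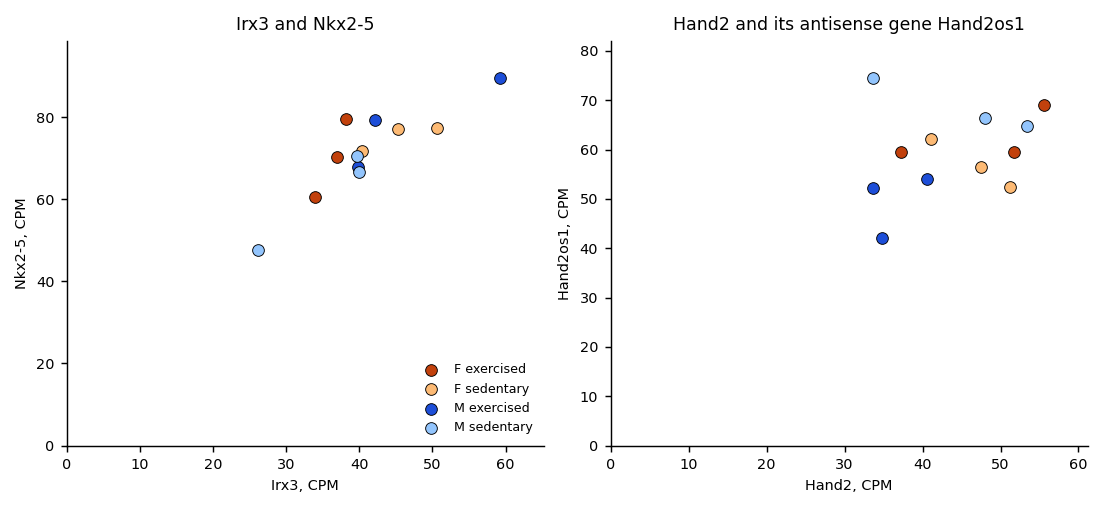
Left, Nkx2-5 (vertical) against Irx3 (horizontal), and right, the overlapping gene Hand2os1 (vertical) against Hand2 (horizontal), all in CPM, with 1 point per library, coloured by group. Irx3 and Nkx2-5 are both highest in male exercised 2 and both lowest in male sedentary 3, whereas the exercised males sit below all sedentary males in Hand2os1 and among the lowest libraries in Hand2.

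Among the 9 members, Irx3 and Nkx2-5 had the most similar profiles over the 12 libraries, with a root mean square difference of 0.45, and the next pair, Gata4 and Nkx2-5, was at 0.82. Nkx2-5 was the gene ranked 6 of 16212 by likeness to Irx3, and Irx3 ranked 16 for Nkx2-5. The 3 genes nearest to Irx3 were Agap3, Msl1 and Ppp2r3d, at 0.37, 0.38 and 0.41, and those nearest to Nkx2-5 were Acbd6, Impdh1 and Tcf15, at 0.33, 0.33 and 0.34. Tbx3 and Nkx2-5 were the pair farthest apart, at 1.71. The antisense gene Irx3os overlaps exons of Irx3 and had only 9 to 26 reads a library. Genes of fast conduction are known in mice to depend on Irx3, among them that of the connexin Gja5. Exercise differences of Gja5 and of the connexin gene Gja1 were close to 0 on the log2 scale. They were -0.03 ± 0.12 in females and -0.15 ± 0.12 in males for Gja1, and 0.07 ± 0.15 and -0.09 ± 0.15 for Gja5. Each lay within 1.5 SE of 0.

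Because Nkx2-5 is the most abundant member per length and was one of the pair that went together, the sequence before its RefSeq start is shown. RefSeq promoter windows (GRCm38.p6) were at hand for 6 of the 9 members. Irx3's lies wholly within exons annotated for that gene and is not shown. The Nkx2-5 stretch, chr17:26841609-26841815 on the minus strand, covers the 207 bases outside its own annotated exons and lies inside the gene body that a longer annotated transcript spans. Capitals mark matches to the motifs searched on both strands.
Nkx2-5: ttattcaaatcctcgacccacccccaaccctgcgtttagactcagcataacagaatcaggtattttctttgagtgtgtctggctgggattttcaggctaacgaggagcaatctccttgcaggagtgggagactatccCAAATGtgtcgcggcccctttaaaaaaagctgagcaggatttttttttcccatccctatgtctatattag
The motifs were GATA sites (AGATAA, with T also allowed first and G last), T-box sites (GGTGTNA), NK2 homeobox sites (CACTTAA, or as another form CAAGTG), MEF2 sites and E boxes (CANNTG). The single match was an E box, CAAATG. E boxes occur in 60.2% of 32851 RefSeq windows of this length, GATA sites in 23.6%, NK2 sites in 11.6%, T-box sites in 7.29% and MEF2 sites in 0.381%. A match describes the letters and is no proof of a bound site.

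Gata4, the zinc finger factor, overlapped between exercised and sedentary hearts in both sexes. It lies on the minus strand at chr14:63198922-63271692 (ENSMUSG00000021944.15). It had 92.0, 104 and 92.4 CPM in female exercised hearts, against 101, 99.4 and 94.0 CPM in sedentary females, and 93.3, 119 and 91.3 CPM in exercised males, against 110, 86.2 and 86.6 CPM in sedentary males. Male exercised 2 was again the highest of all 12. The log2 fold change was -0.03 ± 0.11 in females and 0.10 ± 0.11 in males, within 1 SE of 0. Mef2c (ENSMUSG00000005583.16), on the plus strand at chr13:83504034-83667080, had 34.8, 47.7 and 46.5 CPM in female exercised hearts, against 45.4, 46.5 and 48.0 CPM in sedentary females. Exercised males had 48.3, 53.7 and 47.8 CPM, against 54.4, 50.2 and 48.5 CPM in sedentary males. Exercised and sedentary libraries overlapped in both sexes, and the log2 fold changes were -0.12 ± 0.10 and -0.03 ± 0.10. Female exercised 1 alone stood apart, at the lowest level of all, and without it the female value was 0.01.

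Hand2, the basic helix-loop-helix factor (ENSMUSG00000038193.4), lies on the plus strand at chr8:57320983-57324633. It had 37.2, 55.6 and 51.7 CPM in female exercised hearts, against 41.1, 47.5 and 51.2 CPM in sedentary females. Exercised males had 33.7, 34.8 and 40.6 CPM, against 53.4, 48.0 and 33.7 CPM in sedentary males. The exercised males lay low together, but male sedentary 3 was as low as any of them. The log2 fold change was 0.05 ± 0.18 in females and -0.31 ± 0.18 in males (unadjusted p = 0.116, edgeR's adjusted p = 0.689).

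Hand2 shares exons with Hand2os1, a noncoding gene at chr8:57281117-57324233 on the opposite strand, which had 935 to 1726 reads a library, as many as Hand2 with its 713 to 1415. Without knowing whether the authors counted by strand, reads of the shared exons cannot be assigned to either gene. Hand2os1 had 59.6, 69.0 and 59.6 CPM in female exercised hearts, against 62.1, 56.5 and 52.5 CPM in sedentary females. Exercised males had 52.2, 42.1 and 54.1 CPM, against 64.7, 66.3 and 74.6 CPM in sedentary males. The male groups were separate, with a log2 fold change of -0.47 ± 0.10 (unadjusted p = 0.000386, edgeR's adjusted p = 0.567), and the female groups overlapped, at 0.14 ± 0.10. The difference between the sexes was 0.61 ± 0.14 (unadjusted p = 0.000815, edgeR's adjusted p = 0.93). DESeq2 gave adjusted p-values of 0.0278 for males and 0.0496 for the difference, and voom 0.76 and 0.962. Hand2 itself had a difference between the sexes of 0.36 ± 0.26 in its exercise effect.

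The 250 bases before the start of Hand2, chr8:57320733-57320982 on the plus strand in RefSeq's GRCm38.p6, are shown because Hand2os1 runs through them on the other strand.
Hand2: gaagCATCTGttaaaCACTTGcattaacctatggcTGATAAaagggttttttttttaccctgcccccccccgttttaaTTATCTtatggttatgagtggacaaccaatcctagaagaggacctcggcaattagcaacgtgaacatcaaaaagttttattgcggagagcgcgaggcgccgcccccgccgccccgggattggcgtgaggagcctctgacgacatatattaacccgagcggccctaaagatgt
Capitals mark 2 GATA sites, which 26.5% of the 32851 windows of this length hold at least once, 2 E boxes, held by 66.2%, and 1 NK2 site, held by 13.4%. The NK2 site, CACTTG on the strand shown, is also 1 of the 2 E boxes. No T-box site or MEF2 site was found in these letters, and 8.61% and 0.508% of windows hold one.

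The other design axis was sex within each condition. Among exercised hearts, no member passed, against 0.16% of genes in all. An unadjusted p under 0.05 was reached by 1 member, Hand2, against 9.84% of all genes, and 2 members, Mef2c and Irx3, did not overlap between exercised females and exercised males, against 14.3% of all genes. Hand2 was 0.41 ± 0.18 higher on the log2 scale in exercised females than in exercised males (adjusted p = 0.499, edgeR). Mef2c and Irx3 were lower in exercised females, with log2 differences of -0.21 ± 0.10 and -0.37 ± 0.18 (adjusted p = 0.512 and 0.531, edgeR). The Mef2c value was -0.08 without female exercised 1, and the Irx3 value was -0.17 without male exercised 2. Tbx3 was at 14.2 ± 1.77 CPM in exercised females and 14.1 ± 1.35 CPM in exercised males (SD, n = 3 each).

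Among sedentary hearts, again no member passed, although 2.21% of all genes did. No member had an unadjusted p under 0.05, against 18.4% of all genes. There was no overlap for 3 members, against 25% of all genes: Nkx2-5 and Irx3 were higher in sedentary females than in sedentary males, and Mef2c was lower. The log2 differences were 0.29 ± 0.15 for Nkx2-5, 0.36 ± 0.18 for Irx3 and -0.13 ± 0.10 for Mef2c, with edgeR's adjusted p-values of 0.315, 0.312 and 0.527. Irx3 thus had opposite orders in the conditions, and its difference between the sexes in exercise effect, given above, did not pass. Nkx2-5 was 0.14 and Irx3 0.19 without male sedentary 3, their lowest library. Mef2c kept 1 order in both conditions, and 5 of 6 female libraries lay below every male library, with a range of 34.8 to 48.0 CPM in females and 47.8 to 54.4 CPM in males. The nearest female and male libraries were close, at 47.7 against 47.8 CPM in exercised hearts and 48.0 against 48.5 CPM in sedentary ones.

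Over all libraries Tbx5 was 0.30 ± 0.29 higher in exercised and 0.26 ± 0.29 higher in sedentary females than in males, and Tbx18 0.08 ± 0.22 and 0.13 ± 0.22. With the 9 libraries that held few atrial transcripts, the log2 differences were -0.05 and -0.21 for Tbx5 and -0.09 and -0.06 for Tbx18. Only 2 exercised females and 1 sedentary female remain among these 9, so the second value of each gene sets 1 female library against 3 males. None of these passed a test.

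The 9 members were set against 31 other transcription factors of the heart, of which 26 passed the filter. None of the 26 passed in any of the 6 comparisons by edgeR, DESeq2 or voom. A gene for which DESeq2 gave no adjusted p was counted as not passed. An unadjusted edgeR p under 0.05 was reached by 0 of the 26 in each exercise comparison and by 3 in each comparison of the sexes. Of all genes, 3.93% did so for exercise in females, 7.84% in males, 4.74% for the difference and 6.28% on average. Between the sexes, the share was 9.84% in exercised hearts and 18.4% in sedentary hearts. In females 14 of 26 were above 0 after exercise, with a median log2 fold change of 0.01, and in males 14 of 26, also with a median of 0.01. The smallest p-values in females were those of Meis2, a homeobox factor, at 0.23 ± 0.12, and of the Notch targets Hey2 and Hey1, at 0.34 ± 0.20 and -0.18 ± 0.11. In males they were those of Zfpm1, a cofactor of GATA proteins, at 0.36 ± 0.17, Mef2a, a relative of Mef2c, at -0.21 ± 0.10, and Gata6, a relative of Gata4, at 0.14 ± 0.07. On average over the sexes, they were Gata6 at 0.10 ± 0.05, Meis2 at 0.15 ± 0.09 and Hey1 at -0.12 ± 0.08. For the difference between the sexes, Irx5, an Iroquois relative of Irx3, stood at -0.99 ± 0.55, Hey2 at 0.52 ± 0.29 and Zfpm1 at -0.41 ± 0.23, all with an edgeR adjusted p of 0.93. Leaving out female sedentary 2 brought the Irx5 value to -0.54.

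Between exercised females and males, 13 of those 26 were above 0, with Tead1 at -0.28 ± 0.10, Mef2d at -0.26 ± 0.09 and Tbx1 at 0.64 ± 0.29. Between sedentary females and males, 13 of 26 were above 0 as well, and Gata6 had the smallest p, at 0.23 ± 0.07 (adjusted p = 0.116, edgeR), with Mef2a at -0.25 ± 0.10. Gata6 averaged 78.5 ± 3.86 CPM in sedentary females and 67.1 ± 5.77 CPM in sedentary males (SD, n = 3 each).

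A second list held 29 genes of conduction and of the heart chambers that such factors regulate, and 28 passed the filter. After exercise 20 of 28 were above 0 in females, with a median log2 fold change of 0.09, and 11 of 28 in males, with a median of -0.05. On average over the sexes 14 of 28 were above 0, and the female effect minus the male effect was above 0 for 19 of 28. None passed in these comparisons by edgeR, DESeq2 or voom, with genes lacking a DESeq2 adjusted p again counted as not passed. An unadjusted edgeR p under 0.05 was reached by 3 in females, 3 in males, 4 on average and 5 for the difference. Of all genes, 3.93% did so in females, 7.84% in males, 6.28% on average and 4.74% for the difference. In females Nppa, the atrial natriuretic peptide, had 54.4, 90.3 and 83.2 CPM after exercise, against 222, 196 and 249 CPM in sedentary hearts. These groups were separate, at a log2 fold change of -1.55 ± 0.42, yet edgeR's adjusted p was 1. Kcnj3, a subunit of the acetylcholine-activated potassium channel, was at 0.26 ± 0.09 in females, and its female effect minus its male effect was 0.40 ± 0.12 (adjusted p = 0.93, edgeR). In males, the pacemaker channel gene Hcn2 was at 0.57 ± 0.17 and the potassium channel gene Kcna4 at -0.95 ± 0.33, both with an edgeR adjusted p of 0.615.

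Between the sexes, 12 of these 28 genes were above 0 in exercised hearts and 10 in sedentary ones, and 2 passed, both in sedentary hearts, against 0.16% of all genes in exercised and 2.21% in sedentary hearts. DESeq2 called 1 of the 28 in exercised hearts, Kcne1, and 5 in sedentary hearts, Kcnd3, Kcne1, Kcnj3, Nppa and Ryr2. With voom, 0 passed in exercised hearts and 2 in sedentary hearts, Kcnj3 and Nppa. DESeq2's counts over all genes are given below. None is given for voom in these comparisons, so its 2 genes cannot be set against a share of all genes. Nppa had a log2 difference of 1.46 ± 0.42 between sedentary females and males (adjusted p = 0.119, edgeR). Kcnj3 was lower in sedentary females, at 49.2, 53.5 and 48.6 CPM, against 72.6, 71.9 and 72.6 CPM in sedentary males, a log2 difference of -0.52 ± 0.09 (adjusted p = 0.00875, edgeR). It passed in each of the 12 fits that left out 1 library. In the 9 libraries low in atrial transcripts, where 1 sedentary female stands against 3 sedentary males, its log2 difference was -0.58 with an edgeR adjusted p of 0.166. Kcne1, a small subunit of the slow delayed rectifier channel, was higher in sedentary females, at 6.52, 10.3 and 9.50 CPM, against 3.09, 1.95 and 2.88 CPM in sedentary males, a log2 difference of 1.73 ± 0.38 (adjusted p = 0.0457, edgeR). Its call was lost in 9 of the 12 fits that left out 1 library, with adjusted p-values up to 0.172, and also with voom, at 0.0681. With that 1 sedentary female alone its edgeR adjusted p was 0.303. In exercised hearts the log2 difference of Kcne1 was 1.70 ± 0.38, with an adjusted p of 0.152.

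The profiles most like those of the other members came from varied genes. Nearest to Tbx3 over all 12 libraries were Tnfrsf22, Palb2 and Taz, at root mean square differences of 0.33, 0.37 and 0.42. For Gata4 they were Trim8, Hs6st1 and Rai1, at 0.37, 0.43 and 0.45, and for Mef2c they were Neurl1a, Zkscan1 and Nrn1, at 0.39, 0.43 and 0.49. Tbx20 was nearest to Ap2b1, Creb3l2 and Kcne3, at 0.51, 0.52 and 0.56, Tbx18 to Arfip2, Gm10509 and Lefty1, at 0.46, 0.53 and 0.55, and Hand2 to Med31, Prpsap1 and Gm47815, at 0.49, 0.50 and 0.51. After Plin1, the genes nearest to Tbx5 were Med12 and Rpl30-ps10, at 0.46 and 0.48. These are descriptions over 12 libraries that share their depth and tissue makeup.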

How the data were processed

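The authors deposited whole-number counts of reads per gene in 1 table of 55401 rows for 12 libraries. Per the submitters' processing notes, Trimmomatic 0.36, STAR 2.5.2b and featureCounts of Subread 1.5.2 were used with GRCm38; the sources used here do not give the annotation release, library kit or strand setting. Identifiers were matched to an annotation of GRCm38 (54349 with the version number, 55141 rows with a symbol), which gave the coordinates and exon lengths.

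The members and gene lists were chosen with earlier results of these data known. The fits used edgeR 4.0.16 (R 4.3.3): filterByExpr kept 16213 genes, and libraries were scaled by the trimmed mean of M-values. A group-means model of the 12 libraries (8 residual degrees of freedom, robust spread estimates) was tested by the two-sided quasi-likelihood test with Benjamini-Hochberg adjustment over all 16213 genes at 0.05. The 6 contrasts were exercise in each sex, the difference of these effects, their average, and sex in each condition. A standard error (SE) is the log2 fold change divided by the root of its F statistic. The median SE over all genes was 0.14 for a comparison of 3 libraries with 3. The model was also run on simulated counts with known changes in the female exercised group only, and the recovery rates are not reported here. Libraries of 1 group differed beyond sampling noise (chi-square per degree of freedom 9.13 to 33.2). Each was counted as 1 replicate, on the assumption that it stands for 1 animal.

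All 9 members were named whatever their result; of each list, the genes that passed or the 3 of smallest p per contrast; genes overlapping a member or starting within 5 kb; and the 3 nearest profiles. Some genes named by this rule are not reported here. Other settings were RLE and upper quartile scaling, no filter, a filter of CPM above 1 in at least 3 libraries, the tools DESeq2 1.42.0 and limma 3.58.1 voom with sample weights, no robust spread, only the groups compared, an adjusted p of 0.1, the 9 libraries with Myl7 under 10 CPM, 5 atrial genes as a covariate, no mitochondrial rows, and each library left out. Chosen after seeing the data was the bias-adjusted edgeR test on unfiltered counts.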

Additional observations from a re-analysis of the deposited data

How the results depend on the processing

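No member passed an adjusted p of 0.05 under most alternatives. Without a filter on low counts, that fit called 357 genes for exercise in females, 327 in males, 173 for the difference, 399 for the average, and 531 and 1317 for sex in exercised and in sedentary hearts. Members among these were 0 in females, 3 in males (Tbx3, Nkx2-5 and Irx3), 2 for the difference (Nkx2-5 and Irx3), 1 for the average (Tbx3), 2 for sex in exercised hearts (Hand2 and Irx3) and 2 in sedentary hearts (Nkx2-5 and Irx3). The bias-adjusted test without a filter, chosen after seeing the data, called 0 members, and 43 genes for sex in exercised hearts. DESeq2 called 1, 24, 12, 11, 167 and 876 genes in that order of comparisons, and 1 member, Tbx3, for the average. For sex in exercised hearts, an adjusted p of 0.1 gave 41 genes and the fit of only the groups compared 15. For sex in sedentary hearts, 816 passed at 0.1, 98 with the atrial covariate and 14 in the 9 libraries low in atrial transcripts, which hold 1 sedentary and 2 exercised females, the lone one assumed to vary like the other groups. The fit with the atrial covariate kept all 12 libraries. The cause of its lower count, or of the lower count in the 9 libraries, was not tested.

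Leaving out each library gave 0 to 1 genes for exercise in females, the difference and the average, 17 (without male exercised 3) to 55 (without male exercised 1) for sex in exercised hearts, and 68 (without male sedentary 3) to 462 (without male exercised 2) for sex in sedentary hearts, and 0 members throughout. Of the 1278 alternative values of the members, 60 changed sign, all of them values that had not passed. For exercise in females, Hand2 was -0.20 in those 9 libraries (2 exercised against 1 sedentary), and leave-one-out ranges crossing 0 were -0.28 to 0.31 for Tbx5, -0.07 to 0.20 for Hand2 and -0.20 to 0.01 for Mef2c. In males, Tbx5 was -0.01 with voom, and the ranges were -0.12 to 0.17 for Tbx5, -0.29 to 0.01 for Tbx18, -0.03 to 0.23 for Gata4 and -0.09 to 0.02 for Mef2c. For the difference, they were -0.31 to 0.29 for Tbx5, -0.21 to 0.12 for Tbx18, -0.12 to 0.06 for Tbx20 and -0.16 to 0.04 for Mef2c. For the average, Gata4 was 0.00 (below 0 before rounding) with voom, and the ranges were -0.13 to 0.17 for Tbx5, -0.03 to 0.10 for Gata4 and -0.05 to 0.10 for Irx3.

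For sex in exercised hearts, Tbx3 was 0.00 (below 0 before rounding) with DESeq2, -0.06 with voom, -0.01 in the 9 libraries and -0.06 with the covariate; Tbx5 was -0.05 and Tbx18 -0.09 in the 9 libraries, and -0.22 and -0.19 with the covariate. The ranges were -0.08 to 0.10 for Tbx3, -0.05 to 0.54 for Tbx5, -0.08 to 0.24 for Tbx18, -0.04 to 0.14 for Tbx20 and -0.14 to 0.06 for Gata4. For sex in sedentary hearts, Hand2 was -0.02 with voom, and Tbx5, Tbx18 and Gata4 were -0.21, -0.06 and -0.01 in the 9 libraries and -0.28, -0.17 and -0.01 with the covariate. The ranges were -0.03 to 0.24 for Tbx18, 0.00 to 0.18 for Gata4 and -0.12 to 0.19 for Hand2. No paired analysis was possible because the labels give the groups no shared replicate numbers. With 3 libraries a group, Tbx18, at 63 to 141 reads, and Tbx5, with an SE of 0.29 in females, were the members measured with least precision.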
